A study of Mus musculus with 19 samples.

Results

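The step from mouse embryonic stem cells (mESC) to epiblast-like cells (EpiLC) was compared between 2 lines, LF2 and E14. The quantity described is the transition difference, the change from mESC to EpiLC in LF2 minus the change in E14, on log2(scaled TPM + 1). Scaled TPM is the sum of a gene's transcript TPM (transcript abundance as a share of the library, corrected for length) divided by a median-of-ratios factor. Genes of chromosomes 1 to 19 were taken where 3 or more of the 12 libraries reached 1 TPM, which gave 13825 of the 54119 genes in the table. A positive difference means that a gene went up more, or down less, in LF2, and adding 1 makes the changes of weakly expressed genes look smaller.

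RNA was sequenced in 19 libraries of 6 groups, and 4 groups of 3 libraries are used here. They are mESC and EpiLC of LF2, labelled wild-type XX, and mESC and EpiLC of E14, labelled wild-type XY. The remaining libraries are mESC and EpiLC labelled as XX tet3ko mutants and enter only the setting with all 19 libraries. Per the labels' protocols, the mESC were grown without serum in N2B27 with LIF and inhibitors of the kinases GSK3 and MEK1/2, and EpiLC were made from them by 5 days with FGF5 and Activin A and no LIF. Each sex came from a single line, so sex and every other property of a line cannot be told apart. Nothing in the labels says that replicates were separate cultures, so the p-values measure only the spread between these libraries, which may be technical.

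In mESC kept with LIF and the kinase inhibitors, naive factors such as Esrrb, Tfcp2l1 and Zfp42 hold self-renewal while ERK signalling is blocked and Wnt targets are released by GSK3 inhibition. EpiLC represent the formative state after implantation: naive factors go down, Otx2, Fgf5 and the de novo DNA methyltransferases go up, and cells become responsive to Nodal, Wnt and BMP for germ layer or germ cell fates.

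The checks of the labels and libraries were as follows. The summed TPM of 4 Y-linked genes was at most 0.113 in the LF2 libraries and at least 43.0 in the E14 libraries. Rn7s1, a small structural RNA of the signal recognition particle, made up 23.5% to 41.6% of each library, and scaling factors ran from 0.568 to 1.68. The files do not show the depth, and 11177 to 13811 genes reached 1 TPM in a library. The second LF2 mESC library stood apart. Its Pearson correlation across autosomal genes was 0.949 to 0.951 with its own group and 0.940 to 0.950 with the E14 mESC libraries, while the other LF2 mESC libraries had 0.987 with each other. Counts of called genes over most lists are therefore given with and without it, mostly as higher and then lower differences. They are not given for Hox genes or for extraembryonic endoderm, trophoblast, neural and fibroblast markers.

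Of the 13825 genes, 3590 (26.0%) were called for the transition difference by limma at an adjusted p under 0.05. The difference was higher in LF2 for 1746 of them (48.6%) and lower for 1844, and the median over all tested genes was 0.01. Without the second LF2 mESC library 2890 were higher, and without the second or the third E14 EpiLC library 1162 or 1122 were lower. On deposited TPM without scaling 2418 genes were called, 23.6% of them higher, and the median of all tested genes moved to -0.39. Without the second LF2 mESC library 5557 genes were called, and 3453 of the 3590 were called again in the same direction. The called shares of all tested genes were 12.6% higher and 13.3% lower. The called share was 40.7% without the second LF2 mESC library, and 17.5% on unscaled TPM (571 higher and 1847 lower). Counts over lists are to be read against these shares of all genes. In LF2 7228 genes (52.3%) changed between mESC and EpiLC (24.9% up, 27.4% down), and in E14 7595 (54.9%; 26.2% up, 28.8% down). Of the called genes 47.5% were up in LF2 and 47.6% in E14, and on unscaled TPM 65.7% and 82.3% were. The 4 groups are shared by these comparisons.

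The 3590 genes were put into classes by size. A gene was counted as changed in E14 alone where E14 changed by at least 2-fold and the 95% confidence interval of the LF2 change lay within 1 log2 unit of 0. There were 584 such genes (4.22%), of which 314 (2.27%) rose and 270 (1.95%) fell in E14, and their median absolute change was 1.35 in E14 and 0.33 in LF2. The mirror class held 511 genes (3.70%), of which 295 (2.13%) rose and 216 (1.56%) fell in LF2. The bound allows small changes: 270 of the 584 were also called in LF2 and 214 of the 511 in E14. It is set on log2(scaled TPM + 1), so a weakly expressed gene can pass it although its TPM changed by more than 2-fold. A pseudocount of 0.1 left 255 of the 584 and 245 of the 511 in their class. A further 327 genes (2.37%) changed in opposite directions, 174 (1.26%) up in LF2 and down in E14 and 153 (1.11%) the other way. These 3 classes together held 10.3% of the tested genes. Most opposite changes were small, and 19 genes were left when a change of at least 2-fold was required in both lines and in the difference. Another 526 genes (3.80%) changed the same way in both lines and more in E14, and 371 (2.68%) more in LF2.

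Without the second LF2 mESC library the classes of E14 alone, LF2 alone and opposite directions held 771, 573 and 693 genes. Leaving out the second or the third E14 EpiLC library gave 370 or 362 genes for E14 alone, and leaving out the second E14 EpiLC library gave 216 for opposite directions. Of the 584 genes, 184 reached the TPM minimum through the libraries of 1 group alone, against 108 of the 511 and 667 of all 13825. Such a gene had to differ and is not tested once a library of that group is left out, so counts over lists are descriptions only. Of the genes described below this holds for Acta2, Boc, Car14, Cdx2, Cer1, Chrd, Cyp26a1, Egln3, Fgf8, Fgf15, Foxa2, Gsc, Krt17, Nog, Sp5, Stk33, Stra6, Wfdc15a, Wnt6, Wnt7b, Wnt8a, Zeb2, Pramel6, Pramel7 and the predicted genes.

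**Figure D1:**
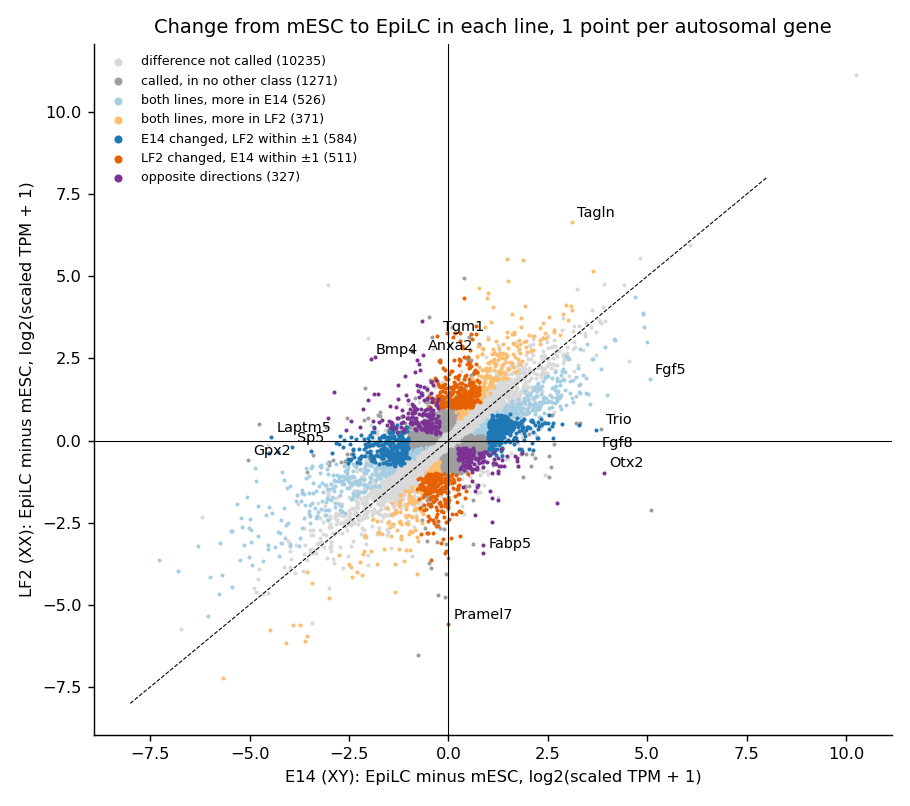
Change from mESC to EpiLC of every tested autosomal gene in E14 (horizontal axis) and LF2 (vertical axis), in log2(scaled TPM + 1) units, coloured by class, with the dashed line marking equal change. Most of the 13825 genes lie along the dashed line, while Otx2, Bmp4 and Fabp5 lie in the quadrants of opposite change.

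The lines differed in 4492 genes (32.5%) in mESC and in 5094 (36.8%) in EpiLC. Among the 3590 called genes, 1484 (41.3%) had a called line difference in EpiLC and none in mESC, and 1136 (31.6%) had one in mESC and none in EpiLC. In 447 (12.5%) the lines differed in both states with opposite signs. For many of the genes described, levels in both states are therefore given beside the changes.

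All 16 tested genes of the naive list fell in both lines, with a median change of -2.93 in LF2 and -4.44 in E14. For 9 of them the transition difference was called higher in LF2 and for 1 lower, with a median of 1.05 (9 and 2 without the second LF2 mESC library, 7 and 0 on unscaled TPM). Tfcp2l1, a naive transcription factor, had 61.0, 92.4 and 75.8 scaled TPM in the LF2 mESC libraries and 10.4, 11.6 and 10.8 in LF2 EpiLC. In E14 it had 63.1, 40.4 and 74.6 and then 0.926, 0.728 and 0.762. The E14 EpiLC libraries lay below every other library, and the difference was 2.34 (SE 0.29, limma adjusted p 0.000189).

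Dppa5a, an RNA-binding protein abundant in naive cells, had 895, 819.6 and 836 scaled TPM in LF2 EpiLC against 72.5, 59.7 and 57.4 in E14 EpiLC, from 2458–3324 and 1683–2822 in mESC. Klf5, a Kruppel-like factor, fell from 33.8–37.5 to 24.2–26.1 in LF2 and from 15.8–18.0 to 2.29–2.67 in E14, a difference of 1.87 (SE 0.12, limma adjusted p 2.07e-06). Zfp42 (Rex1) and Esrrb had differences of 2.87 and 2.63 (limma adjusted p 1.63e-05 and 1.95e-06). Nanog was the exception, with 193–232 and then 42.2–45.5 in LF2, 107–165 and then 47.1–55.4 in E14, and a difference of -0.85 (SE 0.21, limma adjusted p 0.0123), which was not called on unscaled TPM (adjusted p 0.0557). Sox2, a core factor of pluripotent and neural cells from the shared pluripotency list, fell from 91.8–96.6 to 16.6–17.6 scaled TPM in LF2 and from 87.7–102 to 1.74–2.42 in E14, a difference of 2.60 (SE 0.14, limma adjusted p 6.71e-07).

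In the formative and primed list 13 of 17 tested genes rose in LF2 and 13 in E14. The difference was higher for 3 and lower for 9, with a median of -0.85 (3 and 13 without the second LF2 mESC library, 2 and 9 on unscaled TPM). Fgf5, a growth factor of the early epiblast, was at 0.00726–0.0161 scaled TPM in LF2 mESC and at 2.64, 2.56 and 2.84 in LF2 EpiLC. E14 went from 0.0158–0.167 to 37.6, 35.2 and 35.7. Every E14 EpiLC library held more Fgf5 than every LF2 EpiLC library, and the difference was -3.20 (SE 0.12, limma adjusted p 5.49e-08). Pou3f1 (Oct6) rose from 0.00698–0.0340 to 2.83–3.61 in LF2 and from 0.0155–0.0332 to 6.47–7.17 in E14 (difference -0.85, SE 0.13, limma adjusted p 0.000631, not called with all 19 libraries in the fit).

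Otx2 (chr14:48657677-48673819, GRCm38), a homeodomain factor that drives the formative state and the forebrain, had 28.8, 19.01 and 27.7 scaled TPM in LF2 mESC and 12.4, 12.1 and 11.8 in LF2 EpiLC. The E14 libraries had 2.03, 1.18 and 2.02 in mESC and 38.6, 40.3 and 41.2 in EpiLC. LF2 libraries were high before the step and lower after it, E14 libraries were low before it and the highest of all after it, and mESC and EpiLC libraries overlapped in neither line. The changes were -0.98 (adjusted p 0.00044) and 3.92 (adjusted p 8.42e-09), and the difference was -4.90 (SE 0.23, limma adjusted p 3.62e-07). The other way round, Tcf15, a helix-loop-helix factor of cells leaving the naive state, rose in LF2 from 0.455–1.37 to 4.43–4.74 and fell in E14 from 0.843–2.16 to 0.367–0.511, with a difference of 2.49 (SE 0.30, limma adjusted p 0.000163). Dppa4, a chromatin protein from the shared pluripotency list, rose from 8.57–12.7 to 25.9–26.3 in LF2 and fell from 22.7–28.4 to 15.8–17.9 in E14, with a difference of 1.85 (SE 0.18, limma adjusted p 4.33e-05).

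**Figure D2:**
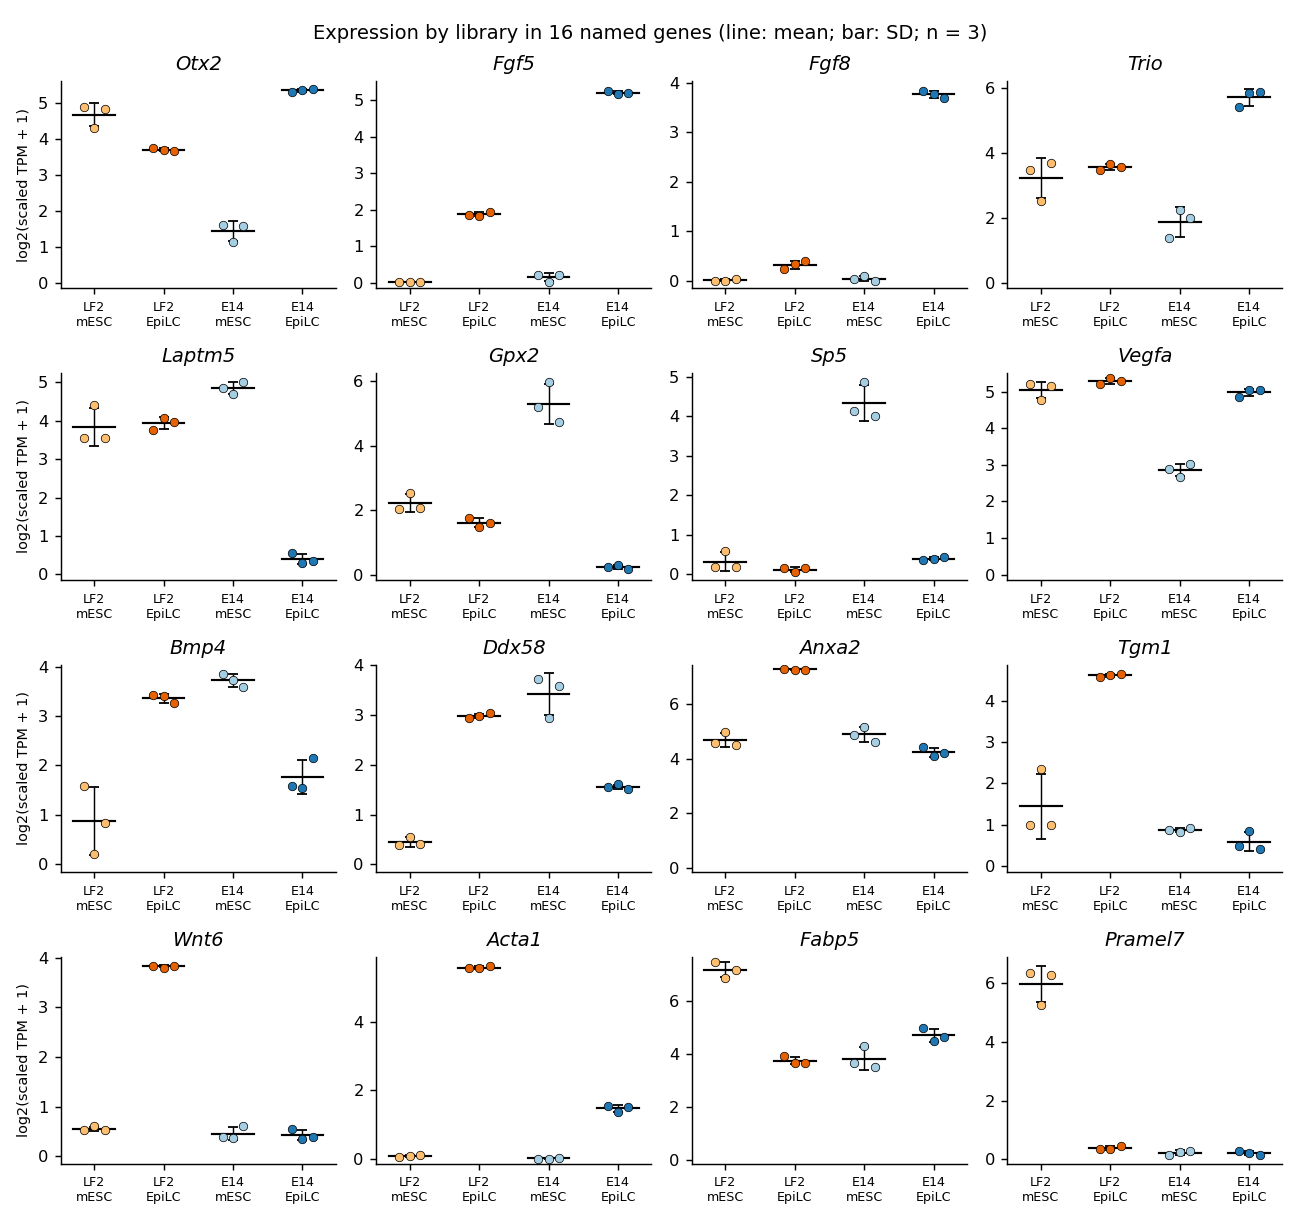
log2(scaled TPM + 1) of 16 named genes in each of the 12 libraries, with the mean and SD of 3 libraries per group, mESC before EpiLC and LF2 before E14. Otx2, Bmp4, Ddx58 and Fabp5 cross between the lines, and Fgf8, Sp5, Wnt6, Tgm1 and Pramel7 are high in 1 group of 4.

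Among 10 tested FGF ligands and receptors 3 had a higher and 5 a lower difference (3 and 5 without the second LF2 mESC library, 0 and 5 on unscaled TPM), and 2 changed in E14 alone. Fgf8 (chr19:45736798-45742915), a ligand of gastrulation and brain patterning, was at 0.181–0.315 scaled TPM in LF2 EpiLC and 13.3, 12.6 and 12.0 in E14 EpiLC, and at 0.0702 or less in every mESC library. The change was 0.31 in LF2 and 3.73 in E14, and the difference was -3.41 (SE 0.11, limma adjusted p 2.86e-08). Fgf15 followed with 0.331–0.419 in LF2 EpiLC and 1.25–1.72 in E14 EpiLC (difference -1.07, SE 0.14, limma adjusted p 0.000257). Fgfr1, the main FGF receptor of the epiblast, rose from 6.57–8.04 to 18.6–20.9 in LF2 and from 5.49–6.94 to 34.6–41.6 in E14 (difference -1.08, SE 0.16, limma adjusted p 0.000598). Fgf8 and Fgf15 reached the TPM minimum through E14 EpiLC alone, and without the first or the second E14 EpiLC library 5 of 8 tested members of the list were called.

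Of 18 tested feedback inhibitors and targets of ERK 12 had a higher difference and none a lower one, with a median of 0.86, against 12.6% of all genes called higher (12 and 0 without the second LF2 mESC library, 6 and 1 on unscaled TPM). In LF2 16 of the 18 rose, and in E14 10 rose. Between the lines, 1 of the 18 was higher and 9 were lower in LF2 mESC than in E14 mESC (median -0.45). In EpiLC 8 were higher and 5 lower in LF2 (median -0.01). The summed scaled TPM of the list was 71.5 to 81.7 in LF2 mESC and 140.0 to 148.8 in E14 mESC. In EpiLC the sum was 155.4 to 159.5 in LF2 and 124.2 to 128.4 in E14, so it ended higher in LF2 while the median did not. Ier3, an early response gene of growth factor signalling, went from 2.54, 1.56 and 2.04 scaled TPM to 23.01, 23.2 and 24.1 in LF2. In E14 it had 2.24, 1.73 and 1.67 and then 2.73, 2.74 and 2.16. The LF2 EpiLC libraries stood above all others, the E14 rise was not called (adjusted p 0.07), and the difference was 2.71 (SE 0.18, limma adjusted p 3.44e-06).

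Dusp5, a phosphatase that binds ERK in the nucleus, had 7.86, 7.05 and 7.44 scaled TPM in LF2 EpiLC and 1.78, 1.26 and 1.77 in E14 EpiLC, with 0.528–0.962 and 0.703–0.830 in mESC. Its difference was 1.68 (SE 0.17, limma adjusted p 4.97e-05). Etv4, an ETS factor induced by FGF, rose in LF2 from 0.0740–0.246 to 8.71–9.59, while in E14 it had 3.82, 0.481 and 3.64 in mESC and 1.33, 1.44 and 1.51 in EpiLC, so that the E14 libraries overlapped. The E14 change of Etv4 was -0.40 (adjusted p 0.356) and its difference 3.55 (SE 0.50, limma adjusted p 0.000443). Spry1, a receptor kinase inhibitor, rose by 2.64 in LF2 and 0.84 in E14 (difference 1.80, SE 0.21, limma adjusted p 0.000131). Ccnd1 (cyclin D1), an ERK and Wnt target that drives entry into S phase, rose in LF2 from 2.47, 5.20 and 2.66 to 9.80, 10.3 and 10.8 and fell in E14 from 31.3, 24.9 and 32.5 to 13.7, 13.9 and 13.1. Its EpiLC levels were close, 9.80 to 10.8 against 13.1 to 13.9, and the mESC levels were not. The difference was 2.46 (SE 0.27, limma adjusted p 8.85e-05).

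Of 15 listed mesendoderm genes, which mark the primitive streak and node, 8 were tested, and the difference was higher for 3 and lower for 4 (3 and 3 of 7 without the second LF2 mESC library, 2 and 4 on unscaled TPM). Cdx2, Cer1, Fgf8 and Foxa2 changed in E14 alone and Gsc in LF2 alone. These 5 are the members that passed the TPM minimum through 1 group only, so that they had to differ, and without any 1 of the E14 EpiLC libraries 4 of 5 tested members were called. Cer1, a secreted antagonist of Nodal, BMP and Wnt, was listed at 0 in all 6 mESC libraries, at 0, 0.0122 and 0.0307 scaled TPM in LF2 EpiLC and at 2.67, 2.48 and 3.00 in E14 EpiLC. The difference was called (limma adjusted p 1.2e-06), and no fold is given against groups at 0. Foxa2, the pioneer factor of definitive endoderm, was at most 0.0958 in LF2 and rose in E14 from 0–0.0803 to 2.19–2.69 (difference -1.72, SE 0.12, limma adjusted p 3.36e-06). Gsc, a homeobox gene of the anterior streak, fell in LF2 alone, from 3.25, 5.36 and 3.35 to 0.0263–0.0539, while E14 had 0.211–0.568 and then 0.374–0.574 (adjusted p 0.595, difference -2.34, SE 0.22, limma adjusted p 2.85e-05). Eomes, a T-box factor of the streak, rose in LF2 by 0.99 and in E14 the change was 0.19 (adjusted p 0.323). The Eomes difference of 0.80 (SE 0.22, limma adjusted p 0.0189) was not called on unscaled TPM (adjusted p 0.523), with all 19 libraries or without the second LF2 EpiLC library (0.75, adjusted p 0.0513).

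Among Nodal and Activin genes, 3 of 19 tested had a higher and 4 a lower difference (5 and 5 without the second LF2 mESC library, 2 and 2 on unscaled TPM). The called share was 36.8% in the list and 26.0% in all genes, or 40.7% in all genes without the second LF2 mESC library. Foxh1, the DNA-binding partner of SMAD2, rose in E14 from 13.3, 11.9 and 11.2 to 37.1, 32.3 and 32.5 scaled TPM. In LF2 it had 14.9, 18.4 and 13.7 and then 17.8, 18.1 and 19.9. In mESC the E14 libraries were just below the LF2 libraries, in EpiLC they stood above all others, and the difference was -1.17 (SE 0.16, limma adjusted p 0.000434). Fst (follistatin), which binds and blocks Activin, fell in E14 from 27.6–38.0 to 9.67–11.6 and rose in LF2 from 0.916–1.29 to 2.19–2.29 (difference 2.07, SE 0.18, limma adjusted p 1.63e-05, not called with all 19 libraries). The E14 libraries were above the LF2 libraries in both states. Lefty2, a Nodal antagonist, rose in LF2 (2.94), and the E14 change was 0.78 (adjusted p 0.088). Its difference of 2.16 (SE 0.51, limma adjusted p 0.00923) rested on mESC libraries that spread over 0.226–2.16 in LF2 and 0.0709–1.44 in E14, and was not called with a pseudocount of 0.1 or with all 19 libraries.

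In the Wnt list 8 of 23 tested genes had a higher and 2 a lower difference, with a median of 0.13 that was -0.44 on unscaled TPM (8 and 4 without the second LF2 mESC library, 5 and 4 on unscaled TPM), and 3 genes changed in E14 alone and 2 in LF2 alone. Without the third LF2 EpiLC library 6 of 21 tested members were called. Sp5 (chr2:70474923-70477729), a zinc finger factor switched on directly by beta-catenin, had 16.6, 28.0 and 15.0 scaled TPM in E14 mESC and 0.281, 0.309 and 0.342 in E14 EpiLC. In LF2 it had 0.124, 0.501 and 0.135 and then 0.119, 0.0307 and 0.105. It was high in E14 mESC alone, and the difference was 3.75 (SE 0.28, limma adjusted p 6.09e-06). Axin2, a feedback inhibitor of the pathway, fell in E14 from 24.6, 36.5 and 24.5 to 5.33, 6.31 and 6.02, and in LF2 it had 2.41, 6.87 and 2.49 and then 2.89, 3.21 and 3.08. The Axin2 libraries of LF2 overlapped between the states. Its difference of 1.92 (SE 0.39, limma adjusted p 0.00463) was not called on unscaled TPM (adjusted p 0.0581). Cdx2, a caudal homeobox factor of the mesendoderm list, was at 3.24, 8.25 and 3.00 in E14 mESC and at 0.618 or less in every other group (difference 2.13, SE 0.39, limma adjusted p 0.00219).

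The ligands Wnt6 and Wnt7b rose in LF2 alone. Wnt6 (chr1:74771892-74785322) had 0.452, 0.517 and 0.441 scaled TPM in LF2 mESC and 13.3, 12.9 and 13.2 in LF2 EpiLC. The E14 libraries held 0.288–0.517 and then 0.276–0.463 and overlapped. The difference was 3.29 (SE 0.13, limma adjusted p 8.43e-08). Wnt7b rose in LF2 from 0.706–1.35 to 7.28–7.30, and the E14 change was 0.27 (adjusted p 0.0731), with a difference of 1.73 (SE 0.17, limma adjusted p 3.86e-05) that was not called with a pseudocount of 0.1. Wnt8a, a ligand of the primitive streak, rose in E14 from 0.0607–0.0970 to 2.81–2.94 and in LF2 from 0.0326–0.131 to 0.396–0.463 (difference -1.43, SE 0.10, limma adjusted p 5.32e-06, not called with all 19 libraries).

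The promoter of Sp5 is shown because Sp5 had the highest difference of the Wnt list. The window is chr2:70474673-70474972, plus strand, from 250 bases before to 50 bases after a RefSeq start (RefSeq, GRCm38.p6). The letters CTTTGAT, a core of the TCF/LEF motif, were searched on both strands and are in capitals. They start 104 bases before the start site and occur in 3.76% of 31396 autosomal promoter windows of 300 bases.
Sp5: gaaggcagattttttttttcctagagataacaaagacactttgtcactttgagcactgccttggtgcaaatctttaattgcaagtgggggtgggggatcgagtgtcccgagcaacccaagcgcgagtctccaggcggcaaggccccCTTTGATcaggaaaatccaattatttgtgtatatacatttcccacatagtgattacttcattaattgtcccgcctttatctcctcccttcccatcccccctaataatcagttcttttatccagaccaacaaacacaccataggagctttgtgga

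In the BMP list, 5 of 16 tested genes had a higher and 3 a lower difference (5 and 3 without the second LF2 mESC library, 4 and 2 on unscaled TPM). Bmp4 (chr14:46383520-46390669), the ligand that induces germ cells and mesoderm, had 1.98, 0.163 and 0.797 scaled TPM in LF2 mESC and 9.69, 9.60 and 8.54 in LF2 EpiLC. For E14 the values were 13.4, 12.3 and 10.9 and then 1.99, 1.93 and 3.46. The gene was thus low then high in LF2 and high then low in E14, with no overlap between the states in either line, and the 3 LF2 mESC libraries spread widely. The changes were 2.48 (adjusted p 2.77e-05) and -1.96 (adjusted p 0.000154). The difference was 4.43 (SE 0.40, limma adjusted p 2.19e-05), and 4.11 without the second LF2 mESC library.

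Of the Id genes, direct targets of BMP and SMAD1/5, Id4 fell in E14 from 4.13–5.80 to 0.224–0.351 scaled TPM. In LF2 it was lower by less, with 0.897–1.11 and then 0.555–0.748 (difference 1.98, SE 0.16, limma adjusted p 1.03e-05). Id3 also fell in E14, from 20.7, 6.41 and 16.6 to 2.91, 2.73 and 2.49, and was at most 0.462 in every LF2 library (difference 2.04, SE 0.44, limma adjusted p 0.00559, not called on unscaled TPM, adjusted p 0.0681). Secreted BMP antagonists went different ways. Nog (noggin) rose in LF2 to 2.08–2.73 against 0.145–0.217 in E14 EpiLC (difference 1.46, SE 0.12, limma adjusted p 1.34e-05), and Chrd (chordin) rose to 2.36–2.99 in E14 EpiLC against 0.534–0.742 in LF2 EpiLC (difference -1.12, SE 0.15, limma adjusted p 0.00026).

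Of 8 tested Hedgehog pathway genes none had a higher difference and 5 a lower one, with a median of -0.72 (0 and 6 without the second LF2 mESC library, 0 and 6 on unscaled TPM). Ptch1, the receptor and a target gene, fell in LF2 from 4.08, 3.88 and 5.27 to 2.03, 2.51 and 2.57 scaled TPM and rose in E14 from 4.79, 3.98 and 5.27 to 10.1, 11.8 and 11.9. The lines overlapped in mESC and not in EpiLC. The difference was -1.79 (SE 0.18, limma adjusted p 5.14e-05). Gli2, the main activator, fell from 1.49–1.72 to 0.321–0.554 in LF2 and rose from 1.30–2.77 to 3.07–4.34 in E14 (difference -1.47, SE 0.24, limma adjusted p 0.00107). Smo, which passes the signal on, rose from 2.84–3.48 to 11.5–12.6 in LF2 and from 2.55–3.28 to 22.3–23.9 in E14 (difference -1.04, SE 0.14, limma adjusted p 0.000289). Boc, a co-receptor, rose in E14 from 0.291–0.412 to 1.52–1.61 and had 0.221–0.516 and then 0.436–0.445 in LF2 (adjusted p 0.808, difference -0.91, SE 0.14, limma adjusted p 0.000645). Without the third E14 EpiLC library 3 of 6 tested members were called.

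Of 10 tested retinoid genes 2 had a higher and 6 a lower difference, with a median of -0.89 (3 and 5 of 9 without the second LF2 mESC library, 1 and 6 on unscaled TPM). Of the 4 that changed in E14 alone, 3 had passed the TPM minimum through 1 group. Without any 1 of the E14 EpiLC libraries 5 of 7 tested members were called. Rdh10, which makes retinal, had 1.41, 1.05 and 1.40 scaled TPM in LF2 mESC and 2.02, 1.54 and 2.01 in LF2 EpiLC. The E14 libraries had 0.878, 1.101 and 0.766 and then 4.26, 4.18 and 4.29. E14 EpiLC stood above all others and the difference was -1.14 (SE 0.15, limma adjusted p 0.000299). Stra6, the receptor that imports retinol, was at most 0.0822 in LF2 and rose to 1.15–1.48 in E14 EpiLC (difference -1.11, SE 0.11, limma adjusted p 4.75e-05). Cyp26a1, which degrades retinoic acid, was listed at 0 in E14 mESC and had 1.79–1.92 in E14 EpiLC against 0.471–0.700 in LF2 EpiLC (limma adjusted p of the difference 0.000236, not called with all 19 libraries). Crabp2, which carries retinoic acid to the nucleus, rose in both lines, to 8.16–9.06 in LF2 and 35.8–48.7 in E14 (difference -2.01, SE 0.19, limma adjusted p 2.99e-05, not called with a pseudocount of 0.1). Rarg, a retinoic acid receptor, rose more in LF2 (2.40 against 1.15), with a difference of 1.25 (SE 0.28, limma adjusted p 0.00675) that was not called on unscaled TPM (adjusted p 0.21).

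Calcium-binding S100 proteins and annexins link calcium to membranes and the cortex. Of 15 tested genes 11 had a higher difference and none a lower one, with a median of 1.6 (11 and 0 without the second LF2 mESC library, 9 and 0 on unscaled TPM). In LF2 9 rose and 3 fell, and in E14 2 rose and 7 fell. Anxa2 (chr9:69453620-69491795), which binds phospholipids and actin together with S100a10, had 22.6, 30.4 and 21.7 scaled TPM in LF2 mESC and 156, 154 and 154 in LF2 EpiLC. The E14 libraries had 28.6, 35.0 and 23.6 and then 20.6, 16.3 and 17.3. The lines overlapped in mESC and went apart in EpiLC, and the difference was 3.25 (SE 0.23, limma adjusted p 4.34e-06).

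The annexin partner S100a10 rose in LF2 from 56.1, 57.2 and 50.1 to 357, 315 and 313 scaled TPM and in E14 from 53.5, 32.8 and 44.8 to 80.4, 66.9 and 68.3 (difference 1.84, SE 0.23, limma adjusted p 0.000189). S100a11 rose in LF2 from 22.2, 35.7 and 16.7 to 110.5, 109 and 103, and E14 had 21.8, 18.3 and 21.4 and then 21.8, 16.4 and 19.8, which overlapped. The S100a11 difference was 2.22 (SE 0.31, limma adjusted p 0.000405). S100a6 rose in LF2 from 9.21–16.9 to 306–330.5 and in E14 from 2.33–3.47 to 4.81–6.88 (difference 3.88, SE 0.28, limma adjusted p 5.34e-06). Anxa1, an annexin of inflammation and epithelia, rose in LF2 from 1.37–2.27 to 14.1–16.7 and fell in E14 from 1.25–2.78 to 0.521–0.944, a difference of 3.25 (SE 0.27, limma adjusted p 1.21e-05). Anxa4 rose in LF2 from 14.6–19.5 to 20.7–23.3 and fell in E14 from 40.7–57.0 to 19.8–20.7 (limma adjusted p of the difference 0.000161).

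The promoters of Anxa2 and S100a11 are shown as examples of genes that rose in LF2 and not in E14. Anxa1, Anxa4 and other members of the list did so too, and their promoters are not shown. The windows therefore do not tell how common the motif is in the list. The letters TGANTCA, a core of the AP-1 motif, were searched on both strands, are in capitals and occur in 7.85% of the same 31396 windows. Anxa2 holds 1 match, 95 bases before the start, and S100a11 holds 2, which start 136 and 38 bases before it. The windows are chr9:69453433-69453732 and chr3:93520246-93520545, both plus strand (RefSeq, GRCm38.p6). A match describes the letters and not binding.
Anxa2: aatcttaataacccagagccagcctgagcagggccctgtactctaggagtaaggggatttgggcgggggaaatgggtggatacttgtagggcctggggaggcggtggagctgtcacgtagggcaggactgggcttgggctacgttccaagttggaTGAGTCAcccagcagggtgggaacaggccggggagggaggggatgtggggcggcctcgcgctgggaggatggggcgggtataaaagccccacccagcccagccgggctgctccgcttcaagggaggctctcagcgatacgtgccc
S100a11: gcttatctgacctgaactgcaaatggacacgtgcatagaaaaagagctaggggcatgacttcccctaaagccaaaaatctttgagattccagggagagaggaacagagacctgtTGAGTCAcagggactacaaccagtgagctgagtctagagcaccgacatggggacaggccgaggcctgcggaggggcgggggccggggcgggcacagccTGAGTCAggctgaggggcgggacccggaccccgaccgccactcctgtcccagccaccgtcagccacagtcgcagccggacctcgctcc

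Among simple epithelial keratins 3 of 5 tested genes had a higher difference and none a lower one (4 and 0 without the second LF2 mESC library, 3 and 0 on unscaled TPM). Krt8 had 16.4, 17.7 and 15.6 scaled TPM in LF2 mESC and 165, 166 and 169 in LF2 EpiLC. The E14 libraries had 18.4, 14.5 and 15.4 and then 29.8, 26.8 and 24.1. The lines overlapped in mESC, and the difference was 2.55 (SE 0.15, limma adjusted p 1.62e-06). Krt19 rose to 83.2–90.2 in LF2 EpiLC and 4.32–5.73 in E14 EpiLC (difference 3.64, SE 0.26, limma adjusted p 4.74e-06). Krt18, the partner of Krt8, rose in both lines (3.74 and 2.87), and its difference of 0.87 was not called (limma adjusted p 0.527), with 36.0, 5.23 and 33.8 in LF2 mESC.

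Tgm1, the transglutaminase of the skin barrier, rose in LF2 from 0.982, 4.11 and 0.970 scaled TPM to 22.99, 23.6 and 24.4, and E14 had 0.766–0.880 and then 0.328–0.803 (difference 3.47, SE 0.42, limma adjusted p 0.00018). Krt17, a keratin of stratified epithelia, rose from 0.0111–0.284 to 8.29–9.33 in LF2 and was at most 0.186 in E14 (difference 3.04, SE 0.15, limma adjusted p 4.57e-07).

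In the list of contractile genes and targets of SRF or YAP, 8 of 17 tested genes had a higher and 2 a lower difference, with a median of 0.68 (9 and 1 of 16 without the second LF2 mESC library, 5 and 2 on unscaled TPM). Outside the list but with one of the highest differences, Acta1, skeletal muscle actin, had 47.2, 46.9 and 49.1 scaled TPM in LF2 EpiLC and 1.94, 1.57 and 1.89 in E14 EpiLC, and at most 0.0722 in mESC. The difference was 4.06 (SE 0.11, limma adjusted p 2.06e-08). Tagln (transgelin), an actin cross-linker of smooth muscle, reached 100.1–105 in LF2 EpiLC and 6.97–9.25 in E14 EpiLC (difference 3.55, SE 0.14, limma adjusted p 8.43e-08). Acta2, smooth muscle actin, rose to 4.36–5.52 in LF2 and 0.253–0.429 in E14 (difference 2.16, SE 0.13, limma adjusted p 1.63e-06). Cavin1, a coat protein of caveolae that is also outside the list, rose in LF2 from 0.488, 1.32 and 0.525 to 20.7, 20.8 and 20.0 and fell in E14 from 2.33, 3.60 and 2.25 to 1.52, 1.22 and 1.21 (difference 4.30, SE 0.25, limma adjusted p 1.4e-06).

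In the list of epithelial adhesion and EMT 5 of 18 tested genes had a higher and 4 a lower difference (5 and 5 without the second LF2 mESC library, 2 and 4 on unscaled TPM). Zeb2, a repressor of E-cadherin, rose in E14 from 0.111, 0.188 and 0.0565 to 4.94, 5.80 and 5.60 scaled TPM and in LF2 from 0.1001, 0.146 and 0.0291 to 0.401, 0.233 and 0.529. The E14 EpiLC libraries stood apart from all others, and the difference was -2.18 (SE 0.14, limma adjusted p 3.19e-06). Without any 1 of the E14 EpiLC libraries, 4 of 16 tested members were called.

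Of 22 tested lysosome and autophagy genes 8 had a higher and 1 a lower difference and 13 were not called, with a median of 0.41 (8 and 2 without the second LF2 mESC library, 1 and 1 on unscaled TPM). The called share was 40.9% in the list and 26.0% in all genes, or 40.7% in all genes without the second LF2 mESC library. The median on unscaled TPM was -0.03, against -0.39 for all genes, and 5 genes changed in E14 alone and none in LF2 alone. Laptm5 (chr4:130913125-130936141), a lysosomal membrane protein best known in blood cells, had the highest difference of the genes named here. It had 27.8, 25.1 and 31.2 scaled TPM in E14 mESC and 0.466, 0.216 and 0.279 in E14 EpiLC. In LF2 it had 10.8, 20.1 and 10.6 and then 12.5, 15.7 and 14.7, which overlapped. The difference was 4.56 (SE 0.29, limma adjusted p 2.36e-06).

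Map1lc3b (LC3B), which coats autophagosomes, fell in E14 from 51.5–57.3 to 18.97–22.2 scaled TPM and in LF2 from 69.5–82.5 to 56.5–58.3 (difference 0.97, SE 0.13, limma adjusted p 0.00039). The protease Ctsb fell from 52.2–63.6 to 16.1–19.6 in E14 and from 39.7–52.6 to 28.7–30.2 in LF2 (difference 0.97, SE 0.18, limma adjusted p 0.0026), and Lamp1, the main lysosomal membrane glycoprotein, from 180.1–217 to 89.7–104 in E14 (difference 0.86, SE 0.15, limma adjusted p 0.00211). Sqstm1 (p62), the autophagy receptor, rose in LF2 from 46.8–57.0 to 75.1–82.6 and fell in E14 from 67.5–89.9 to 39.1–43.2, with a difference of 1.42 (SE 0.17, limma adjusted p 0.000164). On unscaled TPM none of Map1lc3b, Ctsb, Lamp1 and Sqstm1 was called (adjusted p 0.373, 0.288, 0.426 and 0.0601).

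Glutathione and redox genes had a median difference of 0.99, with 9 of 17 tested genes higher and 1 lower (12 and 1 without the second LF2 mESC library, 2 and 1 on unscaled TPM). In LF2 6 rose and 6 fell, and in E14 1 rose and 10 fell. Gpx2 (chr12:76792333-76795554), a glutathione peroxidase, had 35.6, 61.0 and 25.2 scaled TPM in E14 mESC and 0.182, 0.235 and 0.145 in E14 EpiLC. In LF2 it had 3.15, 4.80 and 3.17 and then 2.38, 1.79 and 2.06. The E14 libraries were the highest before the step and the lowest after it, the LF2 change was not called (adjusted p 0.0711), and the difference was 4.44 (SE 0.36, limma adjusted p 1.13e-05). Nqo1, an NRF2 target that reduces quinones, fell in both lines, from 70.3–82.1 to 12.9–14.2 in LF2 and from 71.4–96.1 to 3.25–3.85 in E14 (difference 1.80, SE 0.16, limma adjusted p 2.16e-05). Gclm, the regulatory subunit of glutathione synthesis, rose in LF2 from 8.45, 19.9 and 7.58 to 38.7, 34.6 and 40.0, while E14 had 43.6, 34.4 and 39.5 and then 38.9, 33.0 and 35.2. Its E14 libraries overlapped between the states. Its difference of 1.83 (SE 0.38, limma adjusted p 0.00501) was not called on unscaled TPM (adjusted p 0.119).

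In the hypoxia list 1 of 15 tested genes had a higher and 5 a lower difference, with a median of -0.51 (2 and 9 without the second LF2 mESC library, 0 and 6 on unscaled TPM). Without the third E14 EpiLC library 3 of 14 were called. Vegfa, the growth factor of blood vessels, had 6.36, 5.37 and 7.06 scaled TPM in E14 mESC and 28.1, 31.7 and 31.6 in E14 EpiLC. In LF2 it had 35.6, 26.4 and 34.5 and then 36.0, 40.5 and 38.0. E14 was far below LF2 in mESC and nearer to it in EpiLC, and the difference was -1.87 (SE 0.18, limma adjusted p 3.69e-05). Egln1 and Egln3, the oxygen sensors that mark HIF for decay, rose in E14 by 1.05 and 1.49 and changed by 0.01 and 0.34 in LF2 (difference -1.04 and -1.14, limma adjusted p 0.000537 and 0.000124). Pdk1, a pyruvate dehydrogenase kinase, went the other way and rose in LF2 alone, from 8.23, 3.10 and 8.34 to 17.8, 16.2 and 15.8, with E14 at 18.9–23.2 and then 16.8–17.5 (difference 1.58, SE 0.36, limma adjusted p 0.00836, not called on unscaled TPM, adjusted p 0.0502).

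**Figure D3:**
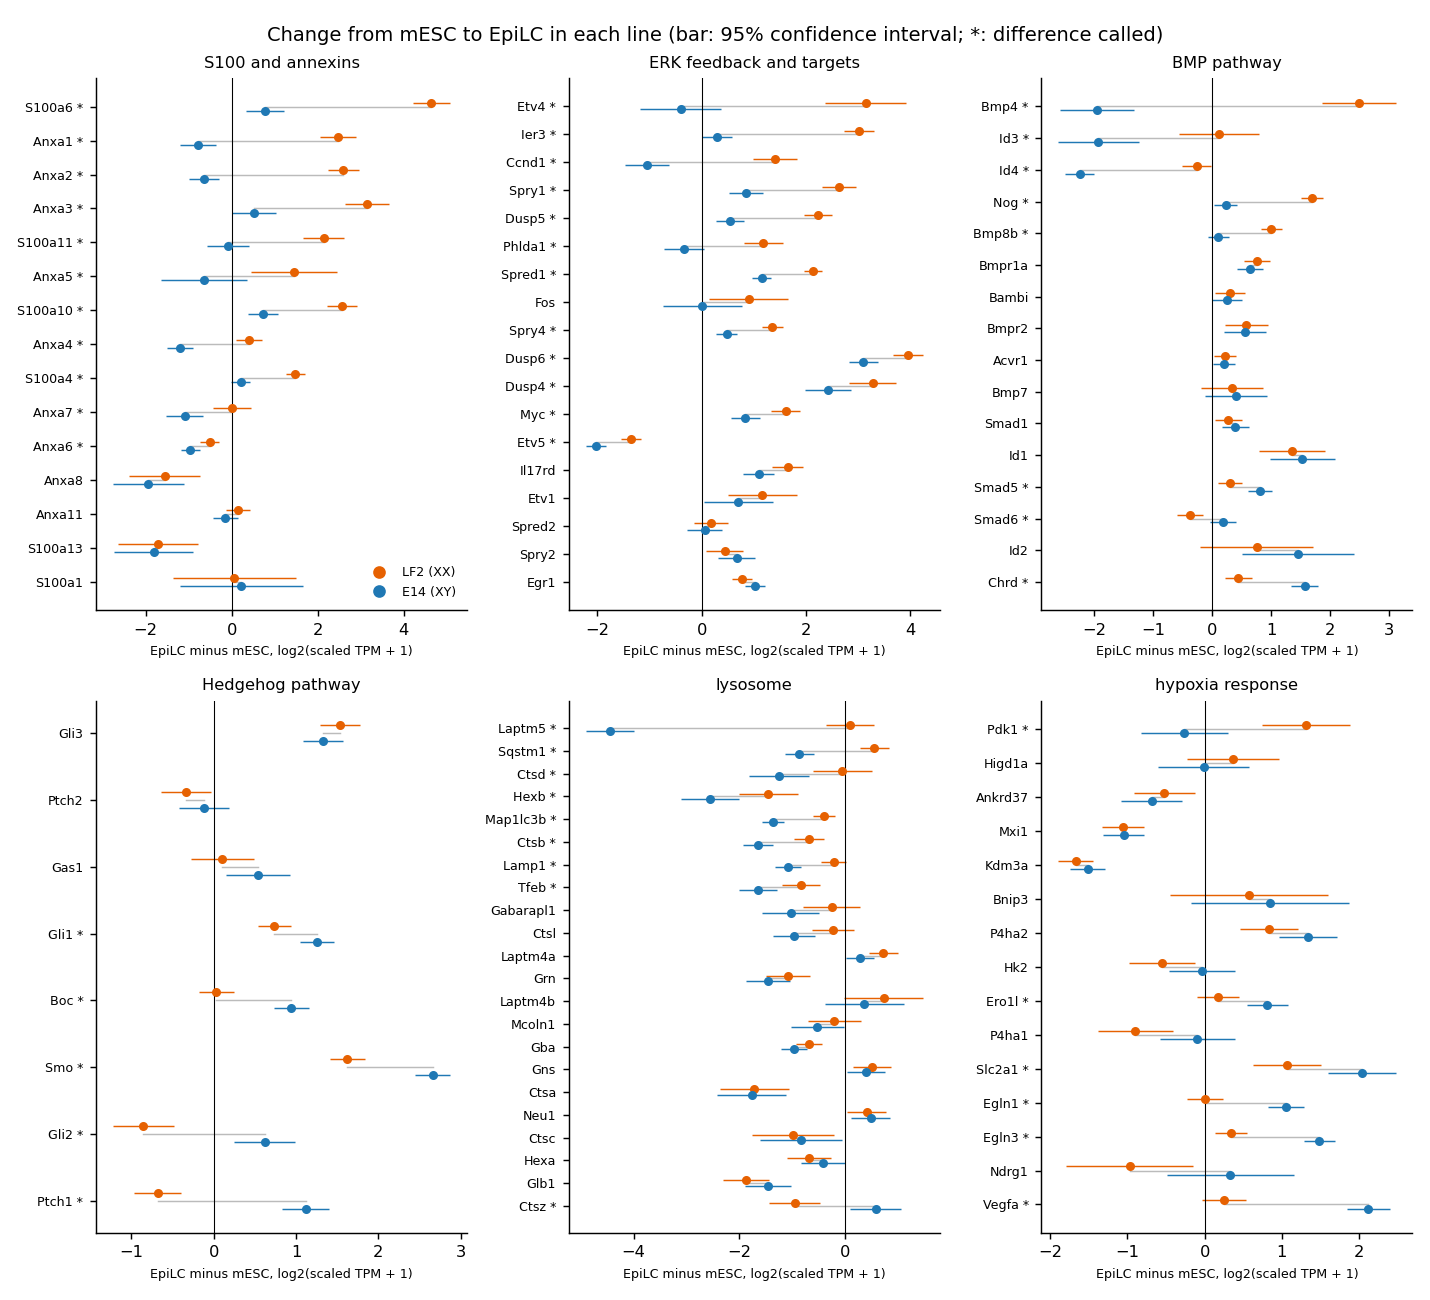
Change from mESC to EpiLC of every tested member of 6 lists in LF2 (orange) and E14 (blue), in log2(scaled TPM + 1) units with 95% confidence intervals, sorted by the transition difference, and a star where it was called. Orange points lie right of blue ones for 11 starred genes of the S100 and annexin list, and left of them for 5 starred Hedgehog genes.

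Of 10 tested interferon response genes 4 had a higher difference and none a lower one (5 and 1 without the second LF2 mESC library, 1 and 0 on unscaled TPM). Ddx58 (chr4:40203773-40239828), which encodes the RNA sensor RIG-I, had 0.303, 0.475 and 0.329 scaled TPM in LF2 mESC and 6.73, 6.86 and 7.21 in LF2 EpiLC. For E14 the values were 12.3, 6.68 and 11.0 and then 1.95, 2.05 and 1.88. The order of the lines was reversed between the states, and the difference was 4.39 (SE 0.24, limma adjusted p 8.1e-07). Irf1, a transcription factor of interferon genes, rose in LF2 from 2.73–2.82 to 14.1–15.5 and in E14 from 6.11–7.56 to 10.5–12.3 (difference 1.36, SE 0.13, limma adjusted p 4.19e-05, not called on unscaled TPM, adjusted p 0.0897).

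Of 11 tested genes of MHC class I presentation 4 had a higher and 1 a lower difference (4 and 1 without the second LF2 mESC library, 2 and 1 on unscaled TPM), and 3 rose by at least 2-fold in LF2 alone. The called share was 45.5% in the list and 26.0% in all genes, or 40.7% in all genes without the second LF2 mESC library. Psmb8, an immunoproteasome subunit, had 0.0881, 0.0194 and 0 scaled TPM in LF2 mESC and 3.90, 4.28 and 4.46 in LF2 EpiLC. In E14 it had 0.0259–0.123 and then 0.643–0.813 (difference 1.63, SE 0.12, limma adjusted p 5.71e-06). B2m, the light chain of class I molecules, rose in LF2 from 22.8–36.3 to 185–201 and in E14 from 16.7–24.3 to 47.8–55.8 (difference 1.31, SE 0.24, limma adjusted p 0.00262, not called on unscaled TPM, adjusted p 0.0685, or with all 19 libraries).

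Imprinted genes are expressed from 1 parental copy. Of 29 tested genes 14 had a higher and 3 a lower difference and 12 were not called, with a median of 0.82 (16 and 6 without the second LF2 mESC library, 9 and 6 on unscaled TPM), and 22 rose in LF2 and 14 in E14. H19, a maternally expressed non-coding RNA, had 3.05, 6.78 and 3.11 scaled TPM in LF2 mESC and 48.7, 47.2 and 48.6 in LF2 EpiLC. It was at most 0.313 in the E14 libraries, which overlapped between the states, and the difference was 3.10 (SE 0.30, limma adjusted p 3.44e-05).

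Mest, a paternally expressed hydrolase gene, rose in LF2 from 2.46, 3.72 and 2.44 to 24.6, 25.0 and 23.9 scaled TPM and fell in E14 from 18.4, 8.85 and 16.8 to 7.46, 6.88 and 6.74 (difference 3.64, SE 0.31, limma adjusted p 1.54e-05). Nnat, a small membrane protein gene, rose to 19.9–20.2 in LF2 and to 1.01–1.28 in E14 (difference 3.35, SE 0.13, limma adjusted p 8.43e-08). Peg10, a gene derived from a retrotransposon, rose from 8.15–10.3 to 69.2–81.3 in LF2 and from 0.599–1.04 to 3.39–3.70 in E14 (difference 1.56, SE 0.17, limma adjusted p 6.77e-05, not called with all 19 libraries). Cd81, a tetraspanin of the cell surface, fell in E14 from 173, 226 and 144 to 70.0, 60.5 and 61.8 scaled TPM, against 164, 135 and 150.3 and then 204, 189 and 195 in LF2 (difference 1.85, SE 0.22, limma adjusted p 0.000139). Plagl1, a zinc finger factor, fell in LF2 from 23.2–29.1 to 2.55–3.18 and was at most 0.996 in E14 (difference -2.13, SE 0.18, limma adjusted p 1.34e-05, not called with a pseudocount of 0.1).

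In the DNA methylation machinery 2 of 12 tested genes had a higher and 3 a lower difference (2 and 5 without the second LF2 mESC library, 2 and 2 on unscaled TPM). Tet1, which oxidises methylcytosine, fell in LF2 from 28.5, 26.9 and 37.2 to 15.5, 20.0 and 17.5 scaled TPM and rose in E14 from 0.510, 0.592 and 0.421 to 3.78, 3.96 and 4.40. The LF2 libraries were above the E14 libraries in both states, and the difference was -2.51 (SE 0.19, limma adjusted p 5.97e-06). Zfp57, which protects imprints from loss of methylation, fell in E14 from 124–152 to 20.3–26.0 scaled TPM and in LF2 from 106–111 to 63.6–76.3 (difference 1.87, SE 0.17, limma adjusted p 2.33e-05). Dnmt3l, the cofactor of de novo methylation, fell in E14 from 4.92–6.90 to 0.130–0.338, and LF2 had 20.2, 3.62 and 19.9 and then 20.3, 19.1 and 18.4 (difference 3.23, SE 0.65, limma adjusted p 0.0042). The second LF2 mESC library was the lowest of the LF2 libraries, and the call held without it. The de novo enzymes Dnmt3a and Dnmt3b rose in both lines, and their differences of -0.38 and -1.06 were not called (limma adjusted p 0.452 and 0.0597). Without the second LF2 mESC library both were called (adjusted p 0.00302 and 0.0364), and Dnmt3b was also called without the first or the third LF2 mESC library, with quantile normalization and with factors from protein-coding genes. For the list 3 calls were left without any 1 of the LF2 EpiLC libraries, the second or the third E14 EpiLC library or the first or the third E14 mESC library.

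Among 25 tested Polycomb genes 3 had a higher and 7 a lower difference (4 and 8 without the second LF2 mESC library, 0 and 6 on unscaled TPM). The called share was 40.0% in the list and 26.0% in all genes, or 40.7% in all genes without the second LF2 mESC library. Kdm2b, which brings the complex PRC1.1 to CpG islands, fell in LF2 alone, from 51.2, 34.6 and 51.1 scaled TPM to 9.92, 12.2 and 11.8. E14 had 21.3, 27.9 and 27.1 and then 19.2, 22.7 and 22.3, which overlapped, and the difference was -1.68 (SE 0.23, limma adjusted p 0.000397). Bmi1, a PRC1 subunit, fell from 7.70–9.52 to 1.67–2.04 in LF2 and from 6.65–7.48 to 3.52–4.63 in E14 (difference -1.06, SE 0.16, limma adjusted p 0.000673).

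In the Pramel family 1 of 5 tested genes had a higher and 2 a lower difference (1 and 0 of 3 without the second LF2 mESC library, 1 and 2 on unscaled TPM), and 5 fell in LF2 and 3 in E14. Pramel6, Pramel7 and 4 predicted genes were high in LF2 mESC alone. Pramel7 (chr2:87489087-87497093), a pluripotency gene of a multi-copy family, had 81.2, 37.4 and 77.3 scaled TPM in LF2 mESC, 0.275–0.367 in LF2 EpiLC and at most 0.230 in E14. The difference was -5.58 (SE 0.33, limma adjusted p 1.37e-06). Pramel6 had 166, 41.1 and 166 in LF2 mESC and at most 0.871 elsewhere (difference -5.77, SE 0.59, limma adjusted p 5.03e-05). Gm428, Gm11236, Gm11237 and Gm11238, predicted genes of chromosome 4, had differences of -4.68, -3.56, -4.46 and -4.00. In all 6 the second LF2 mESC library was the lowest of its group (41.1 for Pramel6, 37.4 for Pramel7 and 9.54 for Gm428), and without any 1 of the LF2 mESC libraries the genes fell under the TPM minimum. Reads shared between copies of such families cannot be checked in a TPM table.

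Fabp5 (chr3:10012548-10016607), a fatty acid carrier, fell in LF2 from 178, 118 and 145 scaled TPM to 14.1, 11.8 and 11.7 and rose in E14 from 11.6, 18.9 and 10.3 to 30.6, 21.5 and 23.9 (difference -4.32, SE 0.31, limma adjusted p 5.32e-06). Igfbp2, which binds insulin-like growth factors, changed in the same directions, from 279–502 to 107–113 in LF2 and from 73.0–86.2 to 178–199.6 in E14 (difference -3.05, SE 0.26, limma adjusted p 1.41e-05). Tm6sf1, a membrane protein gene, fell in LF2 from 6.06–9.24 to 0.636–1.03 and rose in E14 from 0.329–1.34 to 1.58–1.58 (difference -2.94, SE 0.30, limma adjusted p 4.97e-05). Trio, an activator of small GTPases, rose in E14 from 1.62, 3.81 and 3.06 to 41.8, 57.1 and 58.5, while LF2 had 10.1, 4.75 and 11.9 and then 10.3, 11.8 and 10.9 (difference -3.48, SE 0.42, limma adjusted p 0.000162). Atg16l2, related to the autophagy factor Atg16l1, fell in LF2 from 42.6, 10.8 and 43.0 to 1.99, 2.10 and 2.44 (difference -3.79, SE 0.61, limma adjusted p 0.00112).

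Other genes with a high difference fell in E14 or rose in LF2. Sept1, a septin of the cell cortex, fell in E14 from 81.2, 59.4 and 75.0 scaled TPM to 1.87, 1.99 and 2.65, with 12.3–15.6 and then 9.53–11.0 in LF2 (difference 4.15, SE 0.20, limma adjusted p 4.12e-07). Triml1, a gene of early embryos, fell in E14 alone from 24.2–31.7 to 0.239–0.623 (difference 3.96, SE 0.23, limma adjusted p 1.27e-06). Gprc5a, a retinoic acid-inducible receptor, rose in LF2 from 1.41, 1.33 and 1.36 to 5.24, 5.65 and 6.04 and fell in E14 from 7.40, 5.85 and 6.70 to 0.0673, 0.0355 and 0.00840 (difference 4.36, SE 0.13, limma adjusted p 2.26e-08). Adam23, a cell adhesion protein, rose in LF2 from 0.314, 0.419 and 0.585 to 40.2, 45.0 and 44.2, while E14 had 14.1–39.3 and then 29.8–37.9 (difference 4.55, SE 0.40, limma adjusted p 1.68e-05). Cd24a, a surface glycoprotein, did the same, from 2.01, 6.65 and 2.13 to 62.3, 52.4 and 53.5 in LF2 against 58.9–81.5 and then 44.5–57.5 in E14 (difference 4.27, SE 0.42, limma adjusted p 4.47e-05).

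Other genes rose by at least 2-fold in E14 alone: Car14, a carbonic anhydrase, to 9.25–11.1 scaled TPM (difference -2.80, SE 0.18, limma adjusted p 2.04e-06), Prtg (protogenin), a cell surface receptor of early embryos, to 15.6–17.8 (difference -2.56, SE 0.20, limma adjusted p 7.44e-06), and Prickle1, a planar polarity gene, to 5.40–5.67 (difference -2.42, SE 0.16, limma adjusted p 2.99e-06). In LF2 EpiLC these genes had 0.434–0.784, 2.31–2.56 and 1.13–1.52. Some fell in LF2 alone: Pdlim4, an actin-associated adaptor, from 11.7, 6.11 and 10.8 to 0.309–0.422 (difference -3.20, SE 0.34, limma adjusted p 7.36e-05), Wfdc15a, a protease inhibitor gene, from 16.1, 7.37 and 13.9 to 0–0.0647 (difference -3.19, SE 0.31, limma adjusted p 3.66e-05), and Stk33, a kinase gene, from 5.64, 11.7 and 5.59 to 0.0238–0.0663 (difference -3.03, SE 0.29, limma adjusted p 3.27e-05).

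Of the cell cycle inhibitors, Cdkn1a (p21) fell in E14 alone, from 37.2, 65.9 and 39.2 scaled TPM to 15.6, 13.3 and 13.6, against 21.1, 20.7 and 18.9 and then 22.6, 24.1 and 22.4 in LF2 (difference 1.81, SE 0.25, limma adjusted p 0.000444). In the G1 list 4 of 16 tested genes had a higher and none a lower difference (8 and 0 without the second LF2 mESC library, 4 and 1 on unscaled TPM). The p53 target list had 4 of 19 higher and none lower (4 and 2 without the second LF2 mESC library, 1 and 0 on unscaled TPM). Its calls were 2 without the first or the third LF2 EpiLC library or the second or the third E14 EpiLC library, and 8 and 7 without the second and the third E14 mESC library. The called shares were 25.0% in the G1 list and 21.1% in the p53 target list, both under the 26.0% of all genes. Without the second LF2 mESC library 40.7% of all genes were called.

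Core metabolic and housekeeping lists were under the background of 26.0% with all 12 libraries, and 4 of the 6 were above the background without the second LF2 mESC library. In nuclear oxidative phosphorylation 1 of 71 tested genes was called, in cytoplasmic ribosomal proteins 2 of 80, in cholesterol synthesis 0 of 20, in S and M phase 1 of 19, in glycolysis 3 of 21 and in ER chaperones and the unfolded protein response 2 of 14. Without the second LF2 mESC library these counts were 26, 10, 9, 8, 9 and 6, when 40.7% of all genes were called, so that cholesterol synthesis, S and M phase, glycolysis and ER chaperones lay above that share. Without the third E14 mESC library oxidative phosphorylation had 6 and ribosomal proteins 7 calls. For cholesterol synthesis 12 genes rose in LF2 and 9 in E14 of the 20 tested.

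**Figure D4:**
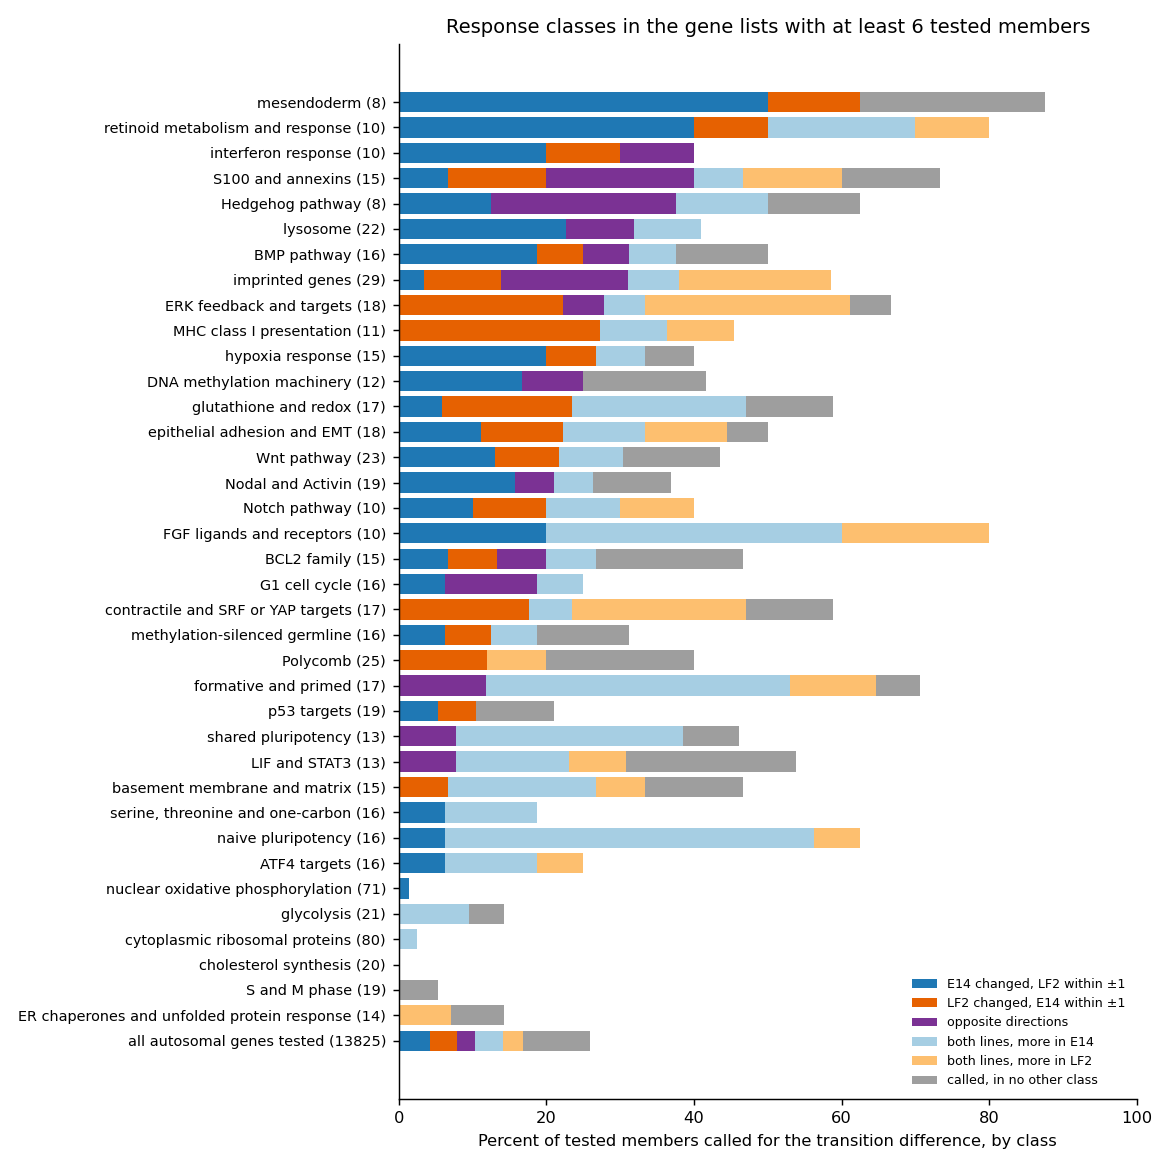
Percent of the tested members of each list that were called for the transition difference, stacked by class, with the number tested in parentheses and all 13825 autosomal genes in the lowest bar. Mesendoderm and retinoid genes have the longest blue bars, ERK targets and MHC class I genes show orange and no dark blue, and oxidative phosphorylation and ribosomal protein genes are almost empty.

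The remaining lists were counted as higher and lower differences. Of all genes 26.0% were called, and 40.7% without the second LF2 mESC library. With all 12 libraries, ATF4 targets (25.0% called) and serine, threonine and one-carbon genes (18.8%) lay under the share of all genes. There were 6 and 1 of 13 LIF and STAT3 genes (8 and 1 without the second LF2 mESC library, 2 and 1 on unscaled TPM) and 5 and 1 of 13 shared pluripotency genes (7 and 2 without the second LF2 mESC library, 3 and 1 on unscaled TPM). BCL2 family genes, which set the threshold of apoptosis, had 5 and 2 of 15 (7 and 5 without the second LF2 mESC library, 0 and 3 on unscaled TPM), with 4 and 3 calls in all without the second and the third E14 EpiLC library. The Notch list had 2 and 2 of 10 (2 and 3 without the second LF2 mESC library, 0 and 2 on unscaled TPM), with 2 calls in all without the first E14 EpiLC library. Basement membrane and matrix genes had 3 and 4 of 15 (3 and 6 without the second LF2 mESC library, 1 and 5 on unscaled TPM), and ATF4 targets 2 and 2 of 16 (3 and 2 without the second LF2 mESC library, 0 and 2 on unscaled TPM). Serine, threonine and one-carbon genes had 1 and 2 of 16 (3 and 2 without the second LF2 mESC library, 1 and 2 on unscaled TPM). Of these, 1 call was left without the third LF2 mESC, the second or the third LF2 EpiLC, the third E14 mESC or any 1 of the E14 EpiLC libraries. Germline genes silenced by methylation had 1 and 4 of 16 (1 and 10 of 14 without the second LF2 mESC library, 0 and 7 on unscaled TPM). Their calls were 2 without the first or the third LF2 mESC library, and 3 without the first or the third LF2 EpiLC, the first E14 mESC or any 1 of the E14 EpiLC libraries. Of 39 Hox genes 3 were tested, and of 16 genes of the programme of cells like the 2-cell embryo none reached the TPM minimum.

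Many markers of other cell types stayed under 1 TPM. Of 15 extraembryonic endoderm markers 8 stayed under 1 TPM in every library and 4 were tested, and the tested ones summed to 51.1 to 61.1 scaled TPM in LF2 mESC, 144 to 147 in LF2 EpiLC, 47.6 to 52.8 in E14 mESC and 57.5 to 60.9 in E14 EpiLC. Most of the LF2 EpiLC sum was Sparc, a matrix protein that is not limited to endoderm, at 135, 135 and 138. For trophoblast 6 of 11 markers stayed under 1 TPM, with Prl3d1 listed at 0, and the 5 tested ones summed to 11.4 to 11.9 in LF2 EpiLC and 1.81 to 2.41 in E14 EpiLC. In mESC these 5 summed to 19.5 to 21.5 in LF2 and 6.6 to 11.05 in E14, so the sum fell in both lines and LF2 was already higher before the step. For fibroblasts 7 of 11 stayed under 1 TPM, and the 3 tested ones summed to 8.81 to 10.8 in LF2 EpiLC and 5.20 to 6.65 in E14 EpiLC. Their mESC sums were 0.306 to 0.853 in LF2 and 0.423 to 1.385 in E14. For neural cells 5 of 12 stayed under 1 TPM, and the 5 tested ones summed to 30.4 to 33.5 in LF2 EpiLC and 27.4 to 29.1 in E14 EpiLC. Their mESC sums were 5.88 to 9.63 in LF2 and 3.565 to 16.64 in E14. Fewer cells of a type and less RNA per cell cannot be told apart in bulk RNA, and the part of such cells in the keratin, contractile and mesendoderm values was not tested.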

How the data were processed

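Bulk RNA of LF2 and E14 mESC and EpiLC was measured as stranded, rRNA-depleted total RNA, 3 libraries per group. Per the submitters' processing notes, the tools were FastQC 0.11.7, Trimmomatic 0.35 and Salmon 1.1.0 with GRCm38. The authors deposited TPM per transcript (140948 transcripts). TPM is a share of each library, so depth is unknown, a few abundant RNAs move all other values, and no count test was run.

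Transcripts were summed per gene. Of them 139357 matched the gene table with their version and 495 without it, and 1096 stayed unmatched. TPM was divided by median-of-ratios factors, and log2(value + 1) was fitted with limma 3.58.1 (R 4.3.3, trended variance) on the 4 groups, with 14378 genes in the fit and Benjamini-Hochberg adjusted p under 0.05 as a call. The 13825 autosomal genes are reported. Genes were classed by a change of at least 1 log2 unit in 1 line and a 95% interval within 1 log2 unit in the other. Tables were handled with Python 3.11.15 and pandas 2.3.3.

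The procedure was also run on simulated data with known changes in 200 genes. Its noise was drawn independently for each library, so none stood apart as the second LF2 mESC library did. The outcome is not reported here and is not used as support. Named genes were the 10 highest and lowest differences and up to 4 of each class and direction (protein-coding, mean scaled TPM of at least 5 in a group, no overlap between the states in the line with the larger change), and members of 45 lists. The members and lists were chosen with earlier results of these data known. Libraries were not paired by replicate number in the main fit. Alternatives were no scaling, other scaling, filters, pseudocounts, blocks, all 19 libraries and each library left out. Some named genes are not reported here.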

Additional observations from a re-analysis of the deposited data

Results flagged for a closer look

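The change from mESC to EpiLC differed between LF2 and E14 by a test of the difference itself for 3590 autosomal genes. The rule for named genes took the 4 largest differences in each direction from the class of opposite change, which also holds other genes described above. The values were 4.43 for Bmp4, 4.39 for Ddx58, 4.36 for Gprc5a, 4.30 for Cavin1, -4.90 for Otx2, -4.32 for Fabp5, -3.05 for Igfbp2 and -2.94 for Tm6sf1, in log2 units. Their adjusted p was at most 4.97e-05 (limma). Sex and line cannot be told apart for any of them.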

How the results depend on the processing

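Requiring an absolute log2 value of at least 1 as well left 1522 calls for the transition difference, 2554 for LF2, 2823 for E14, 1101 between the lines in mESC and 1227 in EpiLC. In the same setting the classes held 372 genes for E14 alone, 336 for LF2 alone, 19 for opposite directions, 189 for more in E14 and 104 for more in LF2. With a TPM of at least 5 the difference had 2154 calls, LF2 4810, E14 alone 277, LF2 alone 249 and opposite directions 211, where fewer genes were tested. Without scaling LF2 had 4305 calls, mESC 1909, LF2 alone 275, opposite directions 116 and more in LF2 142. Of the 3590 genes 1966 were then called in the same direction and 47 had the other sign, and the cause was not tested. Requiring the other line to be uncalled and under 0.5 gave 334 for E14 alone, 323 for LF2 alone, 796 for more in E14 and 585 for more in LF2. Requiring 2 log2 units in the changing line gave 66 and 79 for E14 alone and LF2 alone.

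With single libraries left out, calls ranged from 2490 to 5557 for the difference, 6035 to 7743 for LF2, 5939 to 8867 for E14, 3207 to 6595 in mESC and 3506 to 6778 in EpiLC. The classes ranged from 362 to 771 for E14 alone, 412 to 573 for LF2 alone, 216 to 693 for opposite directions, 357 to 732 for more in E14 and 260 to 593 for more in LF2. The highest count of the difference came without the second LF2 mESC library. Of 113 called genes named in the text, 89 kept their call in every alternative that tested them. Of the others, 14 lost it without scaling, 8 with all 19 libraries, 7 with the minimum of 1 log2 unit and 4 with a pseudocount of 0.1. All 104 tested without the second LF2 mESC library were called, with 9 not tested. Fgf8, Pramel7 and other genes that passed the TPM minimum through 1 group are among the 89. They were not tested once a library of that group was left out, so for them the tally says nothing about those fits. A pseudocount of 0.1 gave 18 of the 3590 genes the other sign. It kept 255 of the 584 genes for E14 alone, 245 of the 511 for LF2 alone and 304 of the 327 for opposite directions.

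The labels do not say whether same-numbered libraries belong together, and the main fit did not pair them. Correlations of the deviations of same-numbered libraries ran from -0.31 to 0.29, and with 3 libraries per group they cannot settle whether libraries were paired. With a replicate block within a line 2995 genes were called for the difference, and with a replicate block across lines 3460. TPM keeps no depth, so a limit on low genes could not be set.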

Other observations

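Called genes were spread over the genome. The share called for the transition difference was 23.7% to 30.5% on each of the 19 autosomes, with chromosome medians from -0.09 to 0.09. Of 11675 protein-coding genes 27.5% were called and of 324 lincRNA genes 30.2%, against 4 of 172 snoRNA genes and 73 of 420 processed pseudogenes.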
